A study of Mus musculus with 11 samples.

Results

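The E proteins and their Id inhibitors are the 6 genes Tcf3 (protein E2A), Tcf12 (HEB), Tcf4 (E2-2), Id1, Id2 and Id3, which were followed here in sorted double-negative (DN) thymocytes at the DN2 and DN3 stages. They were listed by gene identity and not ranked by a measured value, although earlier results of these data were known. They are 6 of the 35975 genes in the deposited tables. All 6 passed the filter on low counts and were among the 13780 genes tested. Their 105 annotated transcripts were all present in the tables.

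E proteins are transcription factors of the basic helix-loop-helix (bHLH) class that bind E-box DNA as dimers, and in the thymus they drive T lineage genes and hold developing cells before the pre-T cell receptor signals. Id proteins keep the helix-loop-helix but lack the basic DNA-binding region, so that an E protein paired with an Id protein cannot bind DNA. The balance of both families is known to set how strongly E protein target genes are used in early thymocytes, and Id3 is known as a gene that responds to T cell receptor signals through Egr factors.

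RNA was sequenced from thymocytes of C57BL/6J mice at 2 stages and of 2 genotypes, in 11 libraries. DN2 WT had 3 libraries, DN2 Arpp21-/- had 2, DN3 WT had 3 and DN3 Arpp21-/- had 3. In Arpp21-/- mice exon 5 of Arpp21, which encodes an RNA-binding protein of thymocytes, was deleted by genome editing in the germ line. The study reports that this shifts the frame of the long isoform, whose protein was lost. It found more protein of a short isoform in thymocytes of these mice. WT mice carried no engineered allele, no agent was given, and the labels give no age for a sample, while by its methods the study drew on mice of both sexes and varied ages, matched for both. The labels do not say whether the libraries of a group came from separate mice, so p values measure the spread between these libraries, which may be technical.

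The 2 features of sequence that the isoform results below turn on are shown first, as coding bases of GENCODE M21 transcripts on GRCm38, read 5′ to 3′ on the strand of the gene. Tcf3 makes E47 and E12 by using 1 of 2 alternative exons for the bHLH domain, and both windows lie in exon 18 of 19 of their transcript, on the minus strand. Capitals mark the 7 of 30 bases at which the E47 and E12 exons differ.
Tcf3-202 (E47 form, chr10:80410534-80410563): gccaataaCgcTcgGgagcgGGtgcgCgtG
Tcf3-210 (E12 form, chr10:80412963-80412992): gccaataaTgcCcgAgagcgCCtgcgGgtC

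Tcf12 makes long HEB from an upstream start and a shorter HEB from an internal start, so that the 2 coding sequences begin in different exons on the minus strand. The upstream start codon lies in exon 2 of 20 of Tcf12-201, which has 682 codons, and the internal one lies in exon 1 of 14 of Tcf12-207, which has 536 codons. Capitals mark the start codon.
Tcf12-201 (upstream start, chr9:72110783-72110812): ATGaatccccagcagcagcgcatggccgcg
Tcf12-207 (internal start, chr9:71895969-71895998): ATGtactgtgcttatcctgtccctggaatg

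The Id genes are close relatives, and 1 window of the helix-loop-helix in exon 1 of each is shown because the genes are compared with each other below. Id1 and Id3 lie on the plus strand and Id2 on the minus strand. Capitals mark the 24 of 30 bases that all 3 genes share.
Id1-201 (chr2:152736596-152736625): GAgATCCTGCAGCatGTaATcGAcTACATC
Id2-201 (chr12:25095795-25095824): GAaATCCTGCAGCacGTcATcGAtTACATC
Id3-201 (chr4:136144080-136144109): GAaATCCTGCAGCgtGTcATaGAcTACATC

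The libraries held between 14531762 and 63109504 estimated counts, with a median of 21501831. Arpp21 itself, as a gene, had between 125 and 183 normalized CPM (counts scaled to the same library size) in DN2 WT and 86.9 and 28.5 CPM in DN2 Arpp21-/-, against 312 to 386 CPM in DN3 WT and 142 to 335 CPM in DN3 Arpp21-/-. Neither genotype difference of the whole gene was called, and counts of the deleted exon were not analysed here. The summed level of the DN3 markers Ptcra, Rag1, Rag2, Cd3e, Cd3g and Notch3 was between 358 and 672 CPM in DN2 and between 3854 and 4552 CPM in DN3, without overlap. Of the DN2 markers, Kit was between 446 and 553 CPM in DN2, apart from 66.6 CPM in DN2 Arpp21-/- replicate 2, and between 24.5 and 97.3 CPM in DN3. In WT, Cd44, Il7r, Flt3 and Spi1 were likewise lower in DN3 without overlap, whereas Il2ra overlapped. The summed level of these 6 DN2 markers overlapped as well, at 1740 to 2456 CPM in DN2 WT and 1235 to 1891 CPM in DN3 WT. In Arpp21-/- it was 326 and 2013 CPM in DN2 and 617 to 1817 CPM in DN3.

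A pair of Arpp21-/- libraries stood apart and carry much of what follows. DN2 Arpp21-/- replicate 2 and DN3 Arpp21-/- replicate 3 had TMM factors of 0.599 and 0.861, against 1.03 to 1.11 in the other 9 libraries. Relative to the other libraries of the stage, genes with effective lengths over 3000 bases were shifted by a median of -1.91 on the log2 scale in the first and -0.93 in the second, and genes under 1000 bases by 1.87 and 0.97. In the other 9 libraries these medians stayed between -0.23 and 0.24. The mean effective lengths were 2655 bases for Tcf3, 3266 for Tcf12 and 2146 for Tcf4, against 810 for Id1, 1107 for Id2 and 1119 for Id3, so the E protein genes are the longer ones. In the first and second library Tcf3 was shifted by -1.70 and -0.77, and Tcf12 by -2.165 and -1.26. Tcf4, the shortest E protein gene, was shifted most, by -3.24 and -1.98. Id2 was shifted by 0.72 and 1.00, and Id3 by 1.34 and 0.67. The part of length in these shifts was not tested. The tests of the members and the E to Id ratios in Arpp21-/- cells are therefore given with and without this pair.

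**Figure D1:**
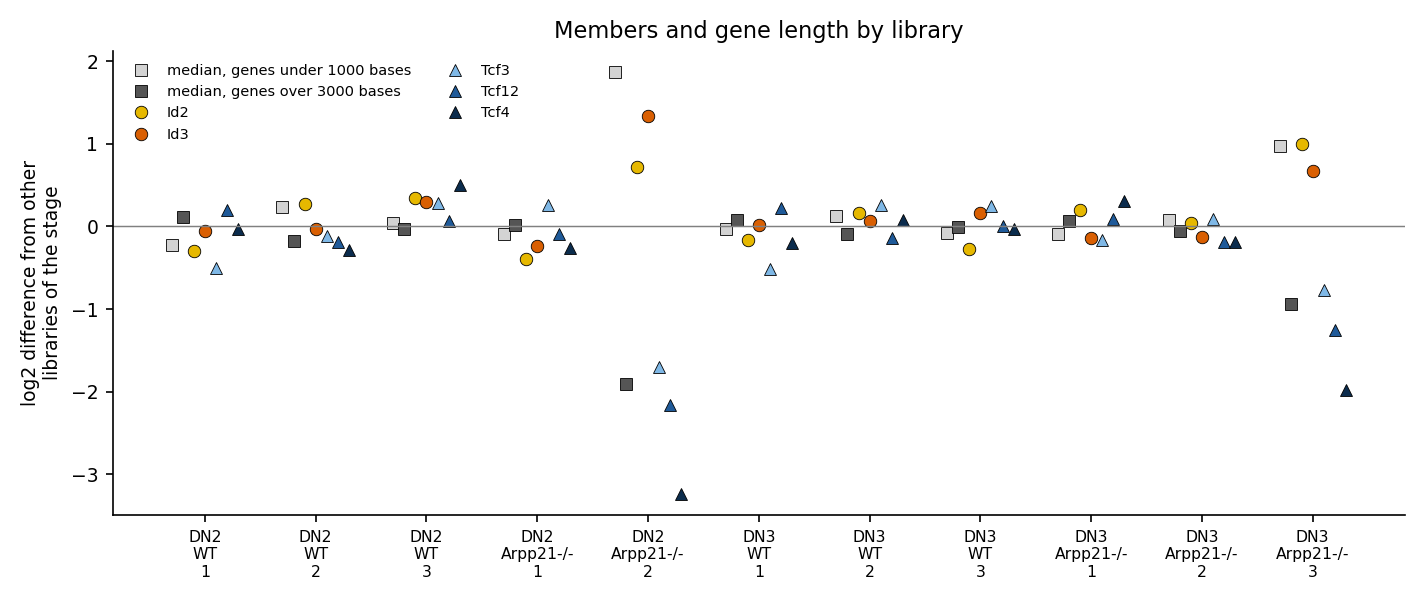
The vertical axis gives the log2 difference of a library from the mean of the other libraries of its stage, leaving out the pair that stood apart, and the horizontal axis gives the 11 libraries. Squares are medians of short and long genes, circles Id2 and Id3, and triangles Tcf3, Tcf12 and Tcf4. In DN2 Arpp21-/- replicate 2 and DN3 Arpp21-/- replicate 3 the triangles and the long genes lie low, with Tcf4 lowest, and the circles and the short genes lie high.

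The first question was which members change from DN2 to DN3 in WT cells. Id3 and Tcf12 were the 2 of 6 members called, both higher in DN3, while Tcf3, Tcf4 and Id2 were within the spread of the libraries and Id1 was close to the limit of detection. Over all genes tested 14.1% were called in this comparison and 34.8% did not overlap between the groups in either direction, and Id3 and Tcf12 were also the 2 of 6 members without overlap. In bulk RNA, fewer cells of a type and less RNA per cell cannot be told apart.

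Id3, an inhibitor of E protein binding, had 11.3, 11.4 and 13.6 CPM in DN2 WT and 72.6, 74.6 and 78.4 CPM in DN3 WT. Every DN3 WT value was thus far above every DN2 WT value. On the log2 scale Id3 rose by 2.65 (SE 0.15, n = 3 and 3, adjusted p = 7.2e-05 by edgeR), or 6.29-fold. Per length, the level rose from 14.5 ± 1.73 TPM (abundance scaled by transcript length, SD, n = 3) to 98.5 ± 6.81 TPM.

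Tcf12, the E protein HEB, had 220, 179 and 204 CPM in DN2 WT and 360, 295 and 320 CPM in DN3 WT. The groups did not overlap, although they lay much closer together than those of Id3. The log2 fold change was 0.71 (SE 0.11, adjusted p = 0.0061 by edgeR), a 1.64-fold rise. When all 11 libraries shared 1 estimate of spread, the change was almost the same at 0.70 but was not called (adjusted p = 0.70), while Id3 was still called (adjusted p = 0.0055), as were 4.08% of all genes. The annotated gene overlaps 3 processed pseudogenes and 1 miRNA gene on the other strand and 7 unverified transcripts on its own, and reads of overlapping exons cannot be told apart without strand.

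Tcf3, the gene of E2A, had 259, 321 and 394 CPM in DN2 WT and 221, 343 and 341 CPM in DN3 WT. The ranges overlapped almost entirely. Its log2 fold change was -0.09, with a 95% interval from -0.59 to 0.42. Tcf4, the gene of E2-2, had 64.6, 56.4 and 84.6 CPM in DN2 WT and 60.7, 70.8 and 66.5 CPM in DN3 WT. It likewise did not separate the stages, with a log2 fold change of -0.04 and a 95% interval from -0.44 to 0.37.

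Id2, the inhibitor best known for its part in innate lymphoid cells, had 9.36, 12.7 and 13.2 CPM in DN2 WT and 11, 13.2 and 10.3 CPM in DN3 WT. Its log2 fold change was -0.02, with a 95% interval from -0.57 to 0.54. So the steep difference between the stages was seen in Id3 and was not seen in Id2, although both are expressed at a like level in DN2. Id1 had 25, 7 and 2 rounded counts in DN2 WT and 3, 0 and 0 in DN3 WT, where 3 counts correspond to between 0.128 and 0.137 CPM. In DN2 Arpp21-/- it had 2 and 37. These counts are too few for a fold to be read, and the test did not call the gene (adjusted p = 0.20 by edgeR).

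**Figure D2:**
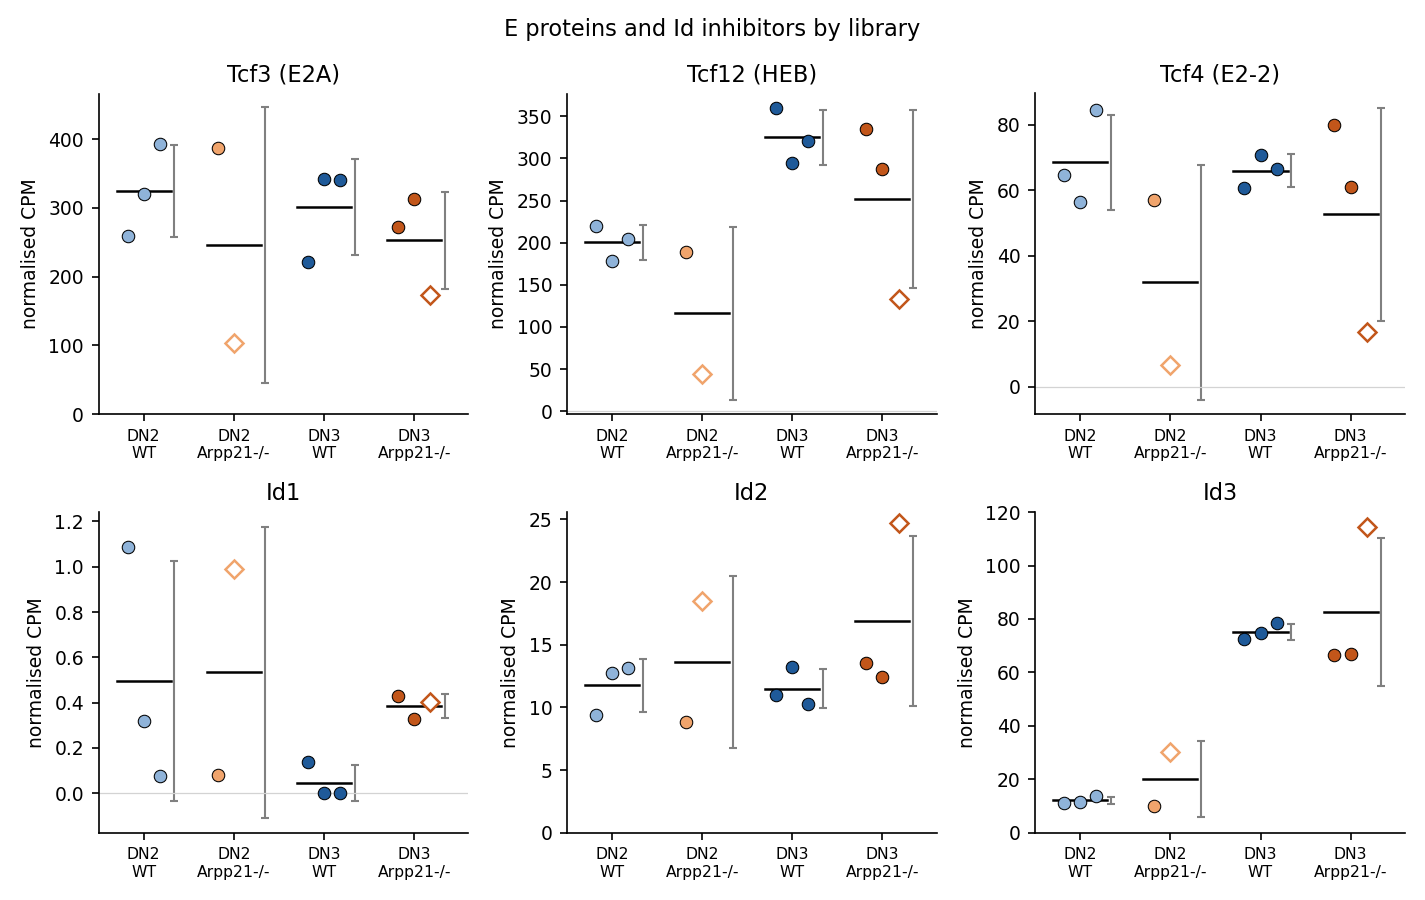
Each panel gives the normalized CPM of 1 gene on the vertical axis for the 4 groups, with 1 point per library, a line at the mean and a bar of 1 SD beside it. Open diamonds are the 2 Arpp21-/- libraries that stood apart. Id3 is near 12 CPM in DN2 WT and near 75 CPM in DN3 WT, and Tcf12 is the E protein gene whose WT groups do not overlap.

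Compared per length, the order of levels in DN2 WT was Tcf3 with 163 ± 31.0 TPM, Tcf12 with 83.7 ± 12.5 TPM, Tcf4 with 43.8 ± 10.7 TPM, Id3 with 14.5 ± 1.73 TPM, Id2 with 14.2 ± 1.94 TPM and Id1 with 0.875 ± 0.978 TPM (SD, n = 3). Of neighbors in this order, Id3 and Id2 overlapped in range and the others did not. In DN3 WT Tcf3 had 168 ± 39.7 TPM and Tcf12 147 ± 18.8 TPM, and the ranges of these genes overlapped. Id3 came next with 98.5 ± 6.81 TPM and had moved above Tcf4 with 43.2 ± 3.37 TPM, followed by Id2 with 15.2 ± 1.49 TPM and Id1 with 0.0663 ± 0.115 TPM.

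The balance of the families was described as the summed TPM of Tcf3, Tcf12 and Tcf4 over the summed TPM of Id1, Id2 and Id3. In DN2 WT this E to Id ratio was 9.75, 9.07 and 10.7 in the 3 libraries. In DN3 WT it was 3.00, 3.16 and 3.29. The DN3 WT libraries thus all lay below the DN2 WT libraries, by 3.11-fold between the means on the log2 scale, and the libraries within each group were close together. The fall came with a sum of Id transcripts that went from 29.5 ± 2.27 to 114 ± 5.93 TPM, of which Id3 made up 48.9% ± 2.91 in DN2 WT and 86.6% ± 1.71 in DN3 WT. The E protein sum went from 291 ± 45.7 to 359 ± 34.8 TPM, and its libraries overlapped between the stages (254 to 342 against 328 to 396 TPM). The size of the fall depends on how genes are weighed. With the mean of log2(TPM + 1) per gene in place of sums, which gives Id1 and Id2 the same weight as Id3, the log2 difference was -0.42 in place of -1.64.

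**Figure D3:**
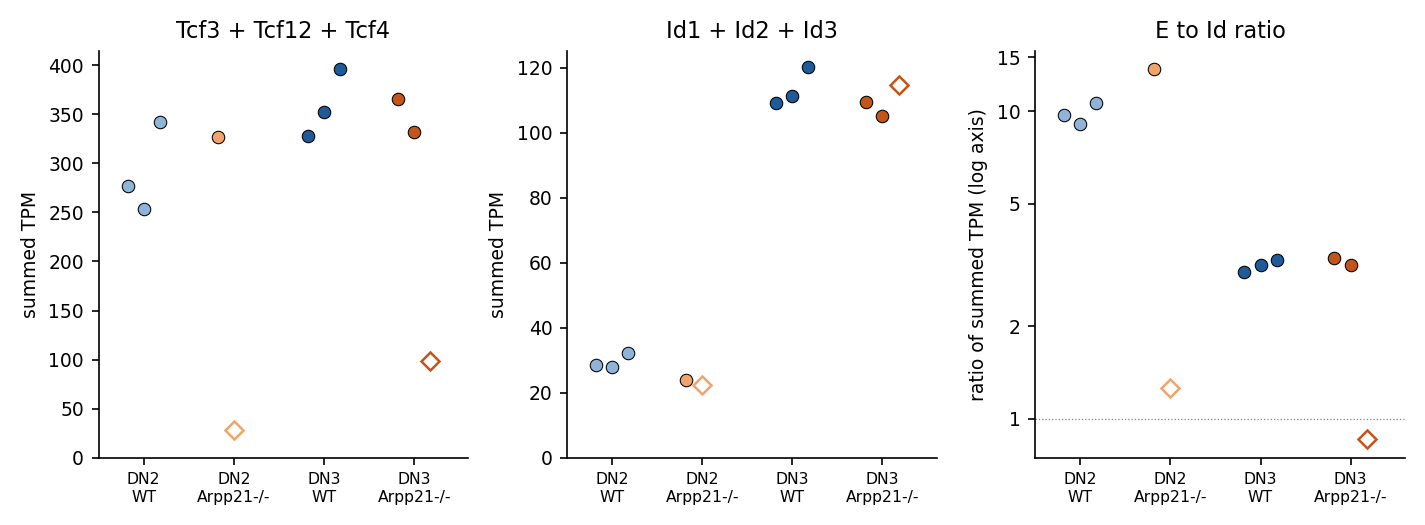
The panels give the summed TPM of the 3 E protein genes, the summed TPM of the 3 Id genes and, on a log axis, their ratio, with 1 point per library in each of the 4 groups. Open diamonds are the 2 Arpp21-/- libraries that stood apart. The WT ratio is between 9.07 and 10.7 in DN2 and between 3.00 and 3.29 in DN3, and the diamonds lie low through the E protein sum.

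Isoforms of Tcf12 differed in how they moved between the stages. Coding transcripts that start at the upstream site had 43.6, 23.8 and 33.8 TPM in DN2 WT and 88.6, 74.4 and 90.1 TPM in DN3 WT. Coding transcripts from the internal start, Tcf12-207 and Tcf12-215, had 27.2, 26.2 and 32.1 TPM in DN2 WT and 33.2, 24.0 and 24.6 TPM in DN3 WT. The upstream form was thus above its DN2 level in every DN3 WT library, with a ratio of means of 2.50, whereas the internal form overlapped between the stages, with a ratio of means of 0.957. The share of the internal start among coding Tcf12 transcripts was 46.1% ± 7.43 in DN2 WT and 24.0% ± 2.78 in DN3 WT (SD, n = 3), without overlap, and the exact two-sided permutation p was 0.1, the smallest that 3 against 3 libraries allow.

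The start site was used for this split after the values had been seen. The other split used, by coding length under 600 codons, counts the upstream transcript Tcf12-208, which has 523 annotated codons, as short. By that split the short share was 48.3% ± 7.34 in DN2 WT and 36.4% ± 2.80 in DN3 WT, again without overlap (exact permutation p = 0.1, adjusted p = 0.88 over 22 isoform comparisons). With 2 or 3 libraries a group no isoform share can pass 0.05, and kallisto shares out read pairs that fit several transcripts, so single transcripts are estimates.

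The E47 to E12 mix of Tcf3 stayed within a narrow range. Transcripts that encode E47 made up 72.4%, 75.2% and 72.0% of the coding TPM of both forms in DN2 WT and 80.2%, 74.3% and 72.6% in DN3 WT. The groups overlapped, with a difference of 2.52 percentage points (exact permutation p = 0.5). Over all 11 libraries the share stayed between 72.0% and 80.2%, in the pair that stood apart as well. For Tcf4 the share of coding transcripts under 600 codons was 58.8% ± 4.96 in DN2 WT and 55.1% ± 3.95 in DN3 WT, with overlap (exact permutation p = 0.4). Tcf4 has 62 annotated transcripts, of which the highest in DN2 WT, Tcf4-225, held 16.2% ± 3.84 of its TPM.

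Tcf4 lies at chr18:69343356-69689079 on the plus strand of GRCm38 and Tcf3 at chr10:80409514-80433647 and Tcf12 at chr9:71842688-72111871, both on the minus strand. For Id2 and Id3 nearly all TPM were on coding transcripts. The coding share was 100% in every library for Id2, and for Id3 it was 100% in DN2 and 94.7% to 98.3% in DN3 Arpp21-/- against 98.96% to 100% in DN3 WT (exact permutation p = 0.1, adjusted p = 0.88). As a share of counts, that of Id3 was 99.3% to 99.8% in DN3 Arpp21-/- against 99.8% to 100% in DN3 WT. The noncoding transcripts Id3-202 and Id3-203 each held at most 8.26 estimated counts in a library.

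**Figure D4:**
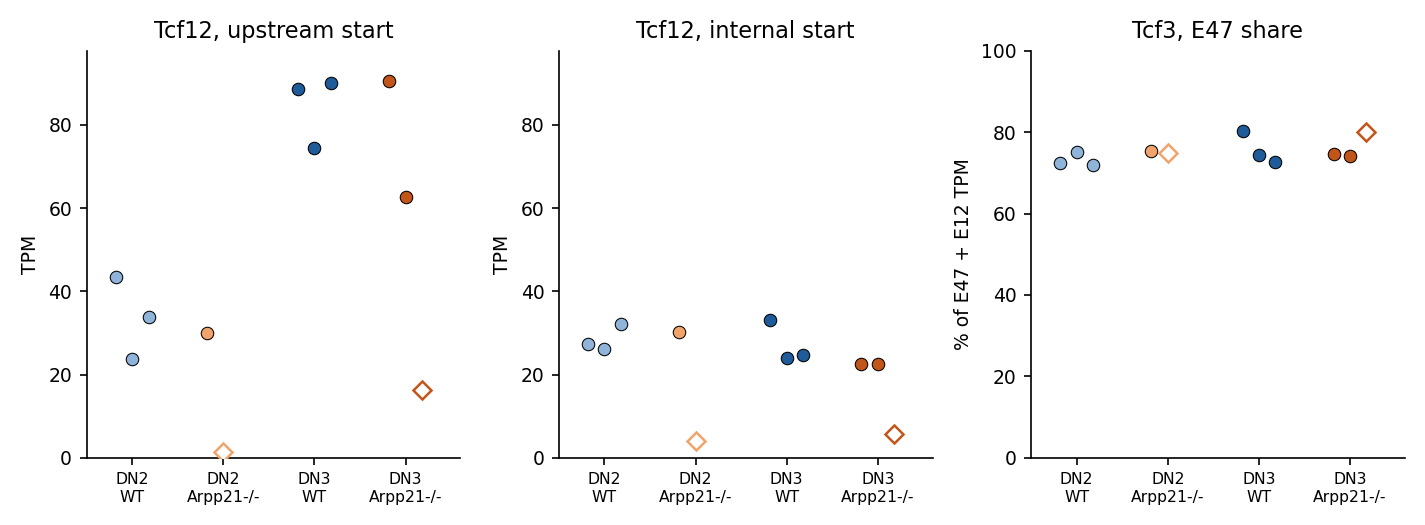
The first 2 panels give the summed TPM of coding Tcf12 transcripts from the upstream and from the internal start, and the third gives the E47 share of Tcf3 in percent, with 1 point per library in each of the 4 groups. Open diamonds are the 2 Arpp21-/- libraries that stood apart. The upstream Tcf12 form is between 23.8 and 43.6 TPM in DN2 WT and between 74.4 and 90.1 TPM in DN3 WT, while the internal form and the E47 share overlap between the stages.

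The same step was then measured in Arpp21-/- cells. No member was called, nor was any other gene (0% of those tested, with 1291 genes at an unadjusted p under 0.05 by edgeR, and 627 genes called by DESeq2, none of them a member). Id3 was the 1 of 6 members without overlap between the stages, where 25% of all genes did not overlap. Id3 had 10.2 and 30.2 CPM in DN2 Arpp21-/- and 66.5, 67.0 and 115 CPM in DN3 Arpp21-/-. On the log2 scale the difference was 2.03 (SE 0.66, 95% interval from 0.40 to 3.65, adjusted p = 0.38 by edgeR). Tcf12 had 189 and 43.7 CPM in DN2 Arpp21-/- and 335, 287 and 133 CPM in DN3 Arpp21-/-, and differed by 1.09 on the log2 scale (SE 0.78, adjusted p = 0.70 by edgeR).

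Without the pair that stood apart, in 1 fit of the 9 other libraries, the 2 members called in this step were the ones called in WT, where 6.56% of all genes were called. Id3 then rose by 2.71 on the log2 scale (SE 0.23, adjusted p = 2.0e-04 by edgeR) and Tcf12 by 0.72 (SE 0.18, adjusted p = 0.048). DN2 Arpp21-/- is 1 library in that fit and is assumed to vary like the other groups. With all 11 libraries in 1 fit Id3 was the only member called, beside 4.32% of all genes (log2 fold change 2.03, adjusted p = 0.037). Per length, Id3 had 12.6 and 13.2 TPM in DN2 Arpp21-/- and 90.1, 88.3 and 94.6 TPM in DN3 Arpp21-/-, so on this scale the libraries of a group lay together.

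The E to Id ratio in Arpp21-/- cells was 13.7 and 1.26 in the DN2 libraries and 3.34, 3.16 and 0.859 in the DN3 libraries. The groups overlapped only through the pair that stood apart, which gave the lowest ratio of each group. In these libraries the E protein sum was 28.4 and 98.5 TPM, against 254 to 396 TPM in the other 9, while the Id sums of 22.5 and 115 TPM were near those of their own stage. The log2 difference of the ratio between the stages in Arpp21-/- was -0.99 with all libraries and -2.08 without the pair. It was -2.72 without DN2 Arpp21-/- replicate 2 alone and -0.35 without DN3 Arpp21-/- replicate 3 alone. Between genotypes, Arpp21-/- against WT, it was -0.59 in DN3 and -1.24 in DN2 with all libraries, and 0.05 and 0.48 without the pair, and the groups overlapped in both stages with all libraries. The part that the shift of long genes plays in these ratios was not tested.

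The upstream Tcf12 form had 29.9 and 1.35 TPM in DN2 Arpp21-/- and 90.6, 62.7 and 16.4 TPM in DN3 Arpp21-/-, and the internal form 30.3 and 3.96 TPM and 22.5, 22.6 and 5.77 TPM. The share of the internal start was 60.9% ± 15.4 in DN2 (n = 2) and 23.8% ± 3.57 in DN3 (n = 3), without overlap (exact permutation p = 0.2). In the pair that stood apart, this share was 71.8% in DN2 Arpp21-/- replicate 2, above the 37.9% to 52.3% of the other DN2 libraries, and 25.7% in DN3 Arpp21-/- replicate 3, within the 19.7% to 26.7% of the other DN3 libraries. By the split on coding length both stood above their stage, with short shares of 77.5% and 48.2% against 40.3% to 54.6% in the other DN2 and 30.9% to 38.2% in the other DN3 libraries. Without the pair the short share differed by -19.1 percentage points between the stages in Arpp21-/-, and by -26.8 with it.

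The next question was whether loss of Arpp21 changed these genes within a stage. In DN3 none of the 6 members was called and neither was any other gene (0% of those tested, with 457 at an unadjusted p under 0.05 by edgeR, and 46 called by DESeq2, again no member). With sample weights (voom) 39 genes were called, and without DN3 Arpp21-/- replicate 3 edgeR called 11, no member in either. Id1 was the 1 of 6 members without overlap, where 10.5% of all genes did not overlap, and this rests on 10, 6 and 5 counts in DN3 Arpp21-/- against 3, 0 and 0 in DN3 WT. At 0.327 to 0.430 CPM it was near the floor of 3 counts, which is between 0.129 and 0.242 CPM in those libraries.

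Among the other members in DN3, Tcf3 had 272, 312 and 174 CPM in Arpp21-/- cells, with a log2 fold change against WT of -0.25 (SE 0.29). Tcf12 differed by -0.36 (SE 0.33) and Tcf4, with 80.1, 61.1 and 16.8 CPM, by -0.32 (SE 0.49). Id2, with 13.5, 12.4 and 24.7 CPM, differed by 0.57 (SE 0.33) and Id3 by 0.15 (SE 0.27). In each of the E protein genes the lowest value, and in Id2 and Id3 the highest value, was that of DN3 Arpp21-/- replicate 3. Without the pair that stood apart, Tcf3 differed by -0.05, Tcf12 by -0.06, Tcf4 by 0.09, Id2 by 0.17 and Id3 by -0.17, with SE between 0.13 and 0.25 and adjusted p = 1.0 for each, so that Tcf4 and Id3 changed sign. With the 6 DN3 libraries, the 95% intervals ran from -0.93 to 0.44 for Tcf3, from -1.14 to 0.42 for Tcf12, from -1.48 to 0.84 for Tcf4, from -0.20 to 1.34 for Id2 and from -0.48 to 0.79 for Id3.

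In DN2 no member and no gene was called either (0% of those tested, with 323 at an unadjusted p under 0.05 by edgeR, and 2 by DESeq2, no member), and 0 of 6 members were without overlap, against 15.8% of all genes. Tcf3 had 388 and 104 CPM in DN2 Arpp21-/-, Tcf12 189 and 43.7 CPM, and Tcf4 57.2 and 6.50 CPM. The first of each pair of values lay within the WT range and the second far below it. Id3 had 10.2 and 30.2 CPM and Id2 8.81 and 18.5 CPM, where the order was the opposite. The log2 fold changes against WT were -0.40 for Tcf3, -0.79 for Tcf12, -1.11 for Tcf4, 0.22 for Id2 and 0.74 for Id3, with SE from 0.55 to 0.87. The 95% intervals were wide, from -1.89 to 1.09 for Tcf3 and from -0.68 to 2.15 for Id3.

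One library decided these values. With DN2 Arpp21-/- replicate 2 as the lone Arpp21-/- library, 4 of 6 members were called, where 45.6% of all genes were called and the spread came from the WT libraries alone, with log2 fold changes of -1.64 for Tcf3, -2.20 for Tcf12, -3.40 for Tcf4 and 1.32 for Id3. Without it none was called, and the values were 0.27, -0.07, -0.24 and -0.23. On the TPM scale the same library had 13.2 TPM of Id3, within the DN2 WT range of 12.7 to 16.2 TPM, and 19.5 TPM of Tcf3, against 141 to 199 TPM in DN2 WT. In this library Id3 was thus above the DN2 WT range in CPM and within it in TPM, while Tcf3 was below the DN2 WT range on both scales.

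**Figure D5:**
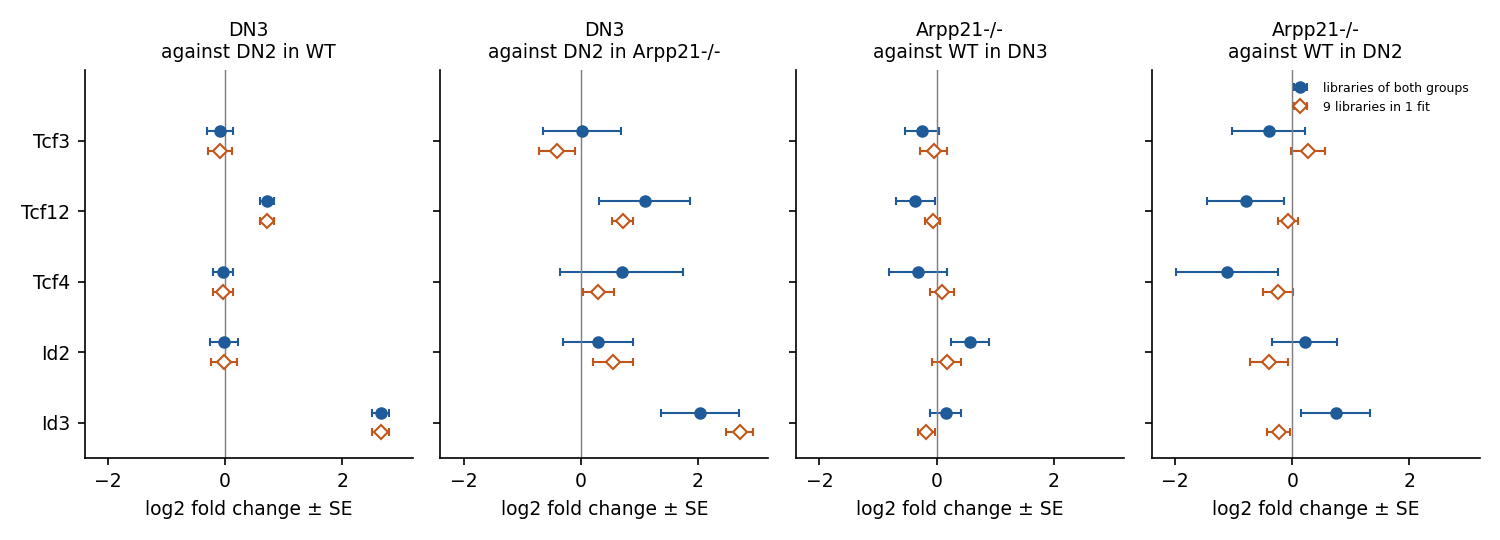
The horizontal axis gives the log2 fold change with a bar of 1 SE for 5 members in the 4 comparisons, with circles for fits to the libraries of both groups and open diamonds for 1 fit of the 9 libraries without the pair that stood apart. In WT both fits coincide, with Id3 at 2.65 and Tcf12 at 0.71, and in the genotype comparisons the diamonds lie closer to 0 in most cases.

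The interaction of stage and genotype, which asks whether the step from DN2 to DN3 differs between the genotypes, was not called for any member or gene (0% of those tested, with 373 at an unadjusted p under 0.05 by edgeR, and 10 called by DESeq2, no member). It was -0.60 (SE 0.57) for Id3 and 0.42 (SE 0.73) for Tcf12 on the log2 scale, with 95% intervals from -1.88 to 0.67 and from -1.20 to 2.04, and 0.06 and 0.01 without the pair that stood apart. Leaving out DN2 Arpp21-/- replicate 1, so that the library that stood apart was alone in its group and the other groups supplied the spread, called Tcf12 and Tcf4 and 27.7% of all genes.

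Other genes of the pathway were followed as lists chosen by their known roles, with earlier results of these data known. The counts and medians of the lists are therefore a description, and no list was tested as a set. Of 12 helix-loop-helix and LMO genes that pair with or oppose E proteins, 8 were tested, and in WT 3 were called lower in DN3 and 0 higher, against 14.1% of all genes called. Lyl1 and Tal1, bHLH factors that dimerize with E proteins, had means of 10.3 and 2.45 CPM in DN2 WT and were at 0 counts in all DN3 WT libraries, where 3 counts are 0.128 to 0.137 CPM. Bhlhe40, a repressor of the same class, fell from 31.5 to 15.1 CPM. Lmo1 and Lmo2, adaptors of Tal1 and Lyl1 complexes, lay lower without overlap but were not called (adjusted p = 0.083 and 0.054 by edgeR). The median log2 fold change of the 8 was -2.01, against 0.03 over all genes.

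All 11 genes known as targets of E proteins in early thymocytes were tested. In WT 7 were called higher and 1 lower in DN3, against 14.1% of all genes called. Ptcra, the pre-T cell receptor alpha chain, rose from a mean of 1.83 to 398 CPM and Rag1, a subunit of the V(D)J recombinase, from 9.81 to 915 CPM. Notch1, the receptor that drives T lineage commitment, rose from 385 to 1030 CPM, Rag2 from 49.2 to 142 CPM and Dntt, the terminal transferase, from 1686 to 2502 CPM. Cdkn1a, an inhibitor of the cell cycle, rose from 44.6 to 65.4 CPM, and Cdk6, a kinase that E proteins are known to repress, fell from 826 to 624 CPM. Gata3 did not separate the stages, with means of 174 and 185 CPM. Ptcra, Rag1 and Rag2 were also among the DN3 markers given above. The median log2 fold change of the 11 was 1.44, against 0.03 over all genes. Of these targets, 7 of 11 were higher in the stage in which the E to Id ratio was lower. That ratio is of RNA and not of protein, and its part in the levels of these targets was not tested. With all 11 libraries in 1 fit 3 of the 11 were called, against 4.08% of all genes.

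Of 8 genes of the receptor signal and BMP paths known to act on Id3 and Id2, 4 were called higher and 1 lower in DN3 WT. Over all genes, 14.1% were called in this comparison. Egr1, an immediate early factor known to induce Id3, had a mean of 0.599 CPM in DN2 WT and 37.5 CPM in DN3 WT. Nr4a1 rose from 2.24 to 24.2 CPM and Nab2, a corepressor of Egr factors, from 0.247 to 11.4 CPM. Egr3 was at 0 counts in all DN2 WT libraries, where 3 counts are 0.115 to 0.136 CPM, and at a mean of 0.787 CPM in DN3 WT. Smad5, a transducer of BMP signals, fell from 81.6 to 56.5 CPM. The median log2 fold change was 3.18, against 0.03 over all genes. With all 11 libraries in 1 fit 3 of the 8 were called, against 4.08% of all genes.

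By edgeR no gene of the 3 lists was called between the stages in Arpp21-/- cells, nor between genotypes in DN3 or in DN2. DESeq2 called 3 partners, 4 targets and 3 signal genes between the stages in Arpp21-/- cells, 1 target between genotypes in DN3 and none in DN2. In the 9 libraries without the pair that stood apart, 5 of 11 targets were called higher, 2 of 8 partners lower and 2 of 8 signal genes higher in DN3 Arpp21-/-, and these 9 genes were all among the 16 called in WT. Between genotypes in DN3, Rag1 had 413, 335 and 236 CPM in Arpp21-/- cells against 904, 867 and 973 CPM in WT, without overlap, and its log2 fold change of -1.47 (SE 0.24) had an adjusted p = 0.65 by edgeR and was called by DESeq2 (adjusted p = 6.1e-05). It was -1.29 without the pair that stood apart (adjusted p = 0.25 by edgeR). Without DN3 Arpp21-/- replicate 3 alone it was -1.31 and was called (adjusted p = 0.029 by edgeR). With sample weights (voom) it was -1.39 and was also called (adjusted p = 0.010 by voom).

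Markers of other cells that use these factors were read beside the members. Of 9 markers of innate lymphoid and NK cells, in which Id2 is known to be high, Ncr1, Eomes, Tbx21, Klrd1 and Il1rl1 were at or below 1.42 CPM in every library and Klrb1c was at 2.91 CPM in 1 DN2 WT library and at or below 0.258 CPM in the others. Rora was between 0 and 6.23 CPM and Zbtb16 between 3.41 and 7.36 CPM in DN2 WT and at 0 counts in DN3 WT, while Nkg7 was between 74.8 and 339 CPM and reached 1652 CPM in DN2 Arpp21-/- replicate 2. The summed level was 313 to 350 CPM in DN2 WT, 345 and 1653 CPM in DN2 Arpp21-/-, 98.9 to 135 CPM in DN3 WT and 77.5 to 154 CPM in DN3 Arpp21-/-. Of 6 markers of plasmacytoid dendritic cells, which depend on Tcf4, Siglech was at or below 0.784 CPM and Klk1 at 0 counts in every library, whereas Bst2, which many cells express, was between 75.4 and 317 CPM and Irf8 between 7.77 and 20.3 CPM. Cox6a2 was between 0.565 and 9.89 CPM and Ccdc162 between 0 and 7.99 CPM. Their summed level was 99.3 to 108 CPM in DN2 WT, 90.4 and 331 CPM in DN2 Arpp21-/-, 130 to 146 CPM in DN3 WT and 124 to 180 CPM in DN3 Arpp21-/-. The summed level of 7 myeloid markers was 114 to 159 CPM in DN2 WT, 134 and 357 CPM in DN2 Arpp21-/- and 29.9 to 47.6 CPM in DN3. The part of such cells in the levels of the members was not tested.

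The genes whose levels across libraries were most like those of each member were named by Pearson's r of log2 CPM, as a description over libraries that share stage, depth and the shift of long genes. Over the 9 libraries without the pair that stood apart, Id3 was close to Trbv20 and Lef1, each with r = 0.995. Tcf12 was closest to Spata13 (r = 0.995), Slamf6 (r = 0.989) and Endou (r = 0.987). Tcf3 was closest to Smad1 (r = 0.983), Tcf4 to Eci2 (r = 0.933) and Id2 to Mib1 (r = 0.956). Over all 11 libraries Spata13 was again closest to Tcf12 (r = 0.997), whereas Id3 was closest to Cldn4 (r = 0.989) and the closest genes were others for Tcf3 (Stk40, r = 0.991), Tcf4 (Fnbp4, r = 0.993) and Id2 (Aimp1, r = 0.963).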

How the data were processed

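RNA of sorted DN2 and DN3 thymocytes was amplified with a SMART-Seq V4 low-input kit, which primes on poly-A tails, and sequenced as paired ends. The authors quantified reads with kallisto 0.46 against Ensembl 101 transcripts of GRCm38. Each deposited file gives estimated counts per transcript, an effective length in bases and TPM, abundances which kallisto scales by length and which keep no depth. For this work, estimated counts of 116728 of 119414 transcripts that matched GENCODE M21 were summed per gene and rounded, and the other 2686 held 0.933% to 1.07% of counts and were left out. Reads that fit several transcripts are divided by the model, so isoforms and near-identical genes are estimates.

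The 13780 genes with at least 10 counts at the median depth in enough libraries and 15 in all (edgeR's filter) were tested. Each comparison was fitted to the libraries of its own groups, the interaction to all 11, with TMM factors and edgeR 4.0.16 quasi-likelihood tests in R 4.3.3, and a gene was called at a Benjamini-Hochberg adjusted p under 0.05. CPM values are counts scaled by the TMM-adjusted library size, and 95% intervals are from the t distribution of each fit. Differences of isoform shares were tested with two-sided exact permutation tests (scipy 1.17.1), adjusted over 22 tests. Some of the 22 compared coding shares of Id genes that were 100% in every library, where p was fixed in advance. The Tcf12 shares split by start site were not among the 22 and were not adjusted. Ratios were described without a test. Alternatives were DESeq2 1.42.0 and its size factors, voom, limma-trend with pseudocounts of 1 or 0.1 TPM (limma 3.58.1), no filter, a filter at 10 CPM, a length offset, 1 fit of all 11 libraries, the 9 libraries without the pair that stood apart, replicate blocks and leaving out each library. The scripts were tested on simulated data. Replicates differed by more than counting noise, so none was the same library sequenced again. Separate libraries made from the same RNA or mouse could not be told from separate mice in this way.

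The members, the lists and the markers were chosen with earlier results of these data known. Genes named are the 6 members, the listed genes and genes among the 3 closest to a member by Pearson's r. Listed partners also held Id4, Tal2, Msc and Ascl2, which were too low to test, and Lmo4, Ldb1 and Hes1, which were not called. Targets also held Cd4, called higher at means of 0.0704 and 1.08 CPM, and Gfi1, not called. A gene of the target list and a gene close to a member are not reported here. Signal genes also held Egr2, Smad1 and Smad7, which were not called. DP markers summed to 0.773 to 3.11 CPM in DN2 and 8.18 to 22.7 CPM in DN3. Of 4 gamma delta markers, 2 were in the files. In WT their summed level was 194 to 238 CPM in DN2 and 259 to 294 CPM in DN3, without overlap. In Arpp21-/- it was 139 and 228 CPM in DN2 and 231 to 276 CPM in DN3, again without overlap. The part of such cells in the level of Id3 was not tested. B cell markers summed to 38.6 to 71.9 CPM with Pax5 at 0 counts in every library.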

Additional observations from a re-analysis of the deposited data

How the results depend on the processing

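Over 18 alternatives the WT stage difference of Id3 stayed between 2.59 and 2.76 on the log2 scale and was called in each, and that of Tcf12 between 0.63 and 0.82 and was called in 16. With 2 or 3 libraries a group, differences inside the 95% intervals given could not be told from none, Id1 was too low to be followed, and at these depths 3 counts, the least that was read as a level, were between 0.0802 and 0.242 CPM. The cause of the changes below was not tested.

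In all 11 libraries in 1 fit, 1 member (Id3) was called between the stages in WT, with 562 genes in all against 1946, and 1 member (Id3) in Arpp21-/-, with 595 genes against 0. The counts for partners, targets and signal genes between the stages in Arpp21-/- were 3, 4 and 2 in that fit, 3, 4 and 3 by DESeq2 and 2, 5 and 2 in the 9 libraries. In WT, 3 targets and 3 signal genes were called in the fit of all 11 libraries and 5 partners by DESeq2, and 1 target was called between genotypes in DN3 by DESeq2. In the 9 libraries 2 members were called between the stages in Arpp21-/- with 904 genes in all, and 5 genes were called between genotypes in DN3 and 2287 between the stages in WT. Leaving out each library in turn called 2 members between the stages in WT, 0 in Arpp21-/- cells and 0 between genotypes in DN3, 0 to 4 between genotypes in DN2 and 0 to 2 in the interaction.

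The labels do not say whether libraries with the same number came from the same mouse, and the main fits did not pair them. In WT each of the 6 libraries was most like the one of the other stage with its number (r from 0.07 to 0.25). In DN2 Arpp21-/- the 2 libraries deviate from their mean as mirror images. Their r of 0.49 and -0.40 with the same-numbered DN3 libraries therefore cannot decide the pairing. With a replicate block, 2 members were called between the stages in WT, with 2856 genes in all, and 0 in Arpp21-/-, with 211 genes, where Id2 was at -0.002005. With genotype and replicate number as a replicate block, 1 member (Id3, adjusted p = 0.033 by edgeR) was called between the stages in WT, with 216 genes in all, and 120 genes in Arpp21-/-. The block changed no other call of a member.

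Members that were not called could change sign. In limma-trend on log2(TPM + 1) and log2(TPM + 0.1), the WT stage differences were 0.02888 and 0.02895 for Tcf3, 0.005361 and 0.006017 for Tcf4, and 0.09565 and 0.1018 for Id2, which was at 0.002174 after a filter at 10 CPM. On the same scales Id3 differed between genotypes by -0.1112 and -0.1123 in DN3 and by -0.1427 and -0.1517 in DN2, with an interaction of 0.0315 and 0.03943, and Id2 by -0.4819 and -0.5189 in DN2. With sample weights (voom), Id2 differed by -0.01952 between the stages in Arpp21-/- and Id3 by -0.1605 between genotypes in DN3. In the 9 libraries, Tcf3 differed by -0.4117 between the stages in Arpp21-/- and by 0.2744 between genotypes in DN2, Tcf4 by 0.09314 and Id3 by -0.1748 between genotypes in DN3, and Id2 by -0.3995 and Id3 by -0.2309 in DN2, with an interaction of 0.05603 for Id3.

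Leaving out each library in turn, WT stage differences ran from -0.2297 to 0.1028 for Tcf3, -0.1578 to 0.1491 for Tcf4 and -0.1623 to 0.08113 for Id2. Those in Arpp21-/- ran from -0.6423 to 1.27 for Tcf3, -0.1476 to 3.003 for Tcf4 and -0.1359 to 0.9146 for Id2. Genotype differences in DN3 ran from -0.743 to 0.07243 for Tcf4 and -0.1951 to 0.2993 for Id3, and those in DN2 from -1.638 to 0.2744 for Tcf3, -0.3995 to 0.6533 for Id2 and -0.2305 to 1.318 for Id3. The interaction ran from -0.2821 to 1.832 for Tcf12 and -1.182 to 0.3893 for Id3.

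The log2 E to Id ratio differed by -0.415 between the stages in WT as a mean of log2(TPM + 1), and by 0.4825 between genotypes in DN2 in the 9 libraries. Left out in turn, libraries moved it from -2.715 to 0.7289 between the stages in Arpp21-/-, from -0.9342 to 0.04662 between genotypes in DN3 and from -2.961 to 0.4825 in DN2. The short share of Tcf12 differed by -22.09 percentage points between the stages in WT when split by start site, an alternative added after the data were seen. Between genotypes it differed by 8.54 points in DN3 over complete coding transcripts and by 3.329 points in DN2 in the 9 libraries, with 3.329 to 29.13 for libraries left out in turn. The short share of Tcf4 differed between genotypes by 2.609 points in DN3 as a share of counts and by 1.889 points in DN2 in the 9 libraries, with 1.889 to 16.77 for libraries left out in turn.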
